A study of Mus musculus with 8 samples.

Results

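Small nucleolar RNA genes were examined on arrays of smooth muscle cells from the mouse aorta. The table holds 99 of them among 24704 named genes, picked as every gene whose Entrez identifier carries a symbol starting with Snord or Snora. Of these, 65 are of the box C/D class (Snord) and 34 of the box H/ACA class (Snora), and their host genes (Snhg) are not members. The RefSeq gene table lists 133 such symbols, and those without a row here were not analysed here.

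All cells were given an adenovirus for 24 h and then cholesterol at 10 µg/ml for 72 h, so every group has both virus and cholesterol. The 4 arrays titled AdN5 are labelled as overexpressing NFAT5, a factor best known for switching on genes under osmotic stress, and are called the NFAT5 arrays. The other 4 arrays, titled AdPl, are labelled as controls. The labels do not say whether replicates are separate cultures, so the p-values reflect spread among samples that may be technical repeats. The promoter and the coding sequence that either virus carried are not stated in the labels.

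Nfat5 itself was not higher in the NFAT5 arrays, against the label, and it was not called. Its log2 RMA value, a normalised probe intensity, averaged 6.97 ± 0.072 in the NFAT5 arrays and 7.16 ± 0.089 in the control arrays (SD, n = 4 each). The log2 fold change was -0.19 ± 0.078 (SE), with an exact two-sided permutation p of 0.0571, and the direction is opposite to overexpression. The arrays are therefore called by their labels only, and the part of the transcript that the probe set reads is not given here. Of 8 smooth muscle markers 0 were called. Acta2, the smooth muscle actin gene, averaged 11.74 in the NFAT5 arrays and 12.04 in the control arrays. Myocd, the smooth muscle co-activator, averaged 3.27 in the NFAT5 arrays and 3.30 in the control arrays, under the median gene of the table at 3.73. Some markers of other cells were called. Of 9 macrophage markers 3 rose and 6 did not pass, and their mean ranged from 6.60 to 6.76 over the NFAT5 arrays and from 6.18 to 6.39 over the control arrays. Of 9 fibroblast or adventitial markers 1 fell and 8 did not pass, with means of 5.39 to 5.62 over the NFAT5 arrays and of 5.87 to 5.90 over the control arrays. Of 6 endothelial markers 0 were called, with means of 4.34 to 4.47 over the NFAT5 arrays and of 4.30 to 4.51 over the control arrays. The part of these cells in the results below was not tested, and in such bulk RNA fewer cells of a type and less RNA per cell cannot be told apart.

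Small nucleolar RNAs are short RNAs that guide enzymes to ribosomal RNA in the nucleolus. Box C/D RNAs pair with the target and direct 2′-O-methylation by fibrillarin, while box H/ACA RNAs form a pocket in which dyskerin turns uridine into pseudouridine. In mammals most lie in introns of genes for ribosomal proteins and translation factors or of noncoding host transcripts, and are trimmed out of the intron after splicing. A few have a promoter of their own. A probe set within such an RNA can also bind the unspliced host transcript, and how much precursor these values hold was not tested.

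Sequence was at hand for 3 members, each of which overlaps a microRNA hairpin in the RefSeq microRNA table (GRCm38.p6). They are shown because Snord33 and Snora36b each carry a box that defines their class, and Snora34 for its overlap alone. The lines give, 5′ to 3′ as RNA, the stretch of the member that the hairpin covers. Capitals mark UGAUGA, a form of the C box, in Snord33, and ACA, the box that lies 3 bases before the end of Snora36b. In Snora34 nothing is marked.
Snord33: agcuugUGAUGAgacaucucccacucau
Snora36b: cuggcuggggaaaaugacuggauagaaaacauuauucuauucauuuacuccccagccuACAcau
Snora34: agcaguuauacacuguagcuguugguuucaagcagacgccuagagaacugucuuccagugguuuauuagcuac

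The Snord33 stretch is its 5′ end, at chr7:45126918-45126945 on the minus strand, within the ribosomal protein gene Rpl13a, and it contains the whole mature miR-5121. The Snora36b stretch is its 3′ end, at chr1:185242975-185243038 on the plus strand within Rab3gap2, and contains both arms of miR-664. The Snora34 stretch is its 5′ end, at chr15:98519762-98519834 on the minus strand within Kansl2, and the mature miR-1291 reaches beyond it. UGAUGA was found in the last 28 bases of 0.498% of 1005 hairpins in the table, and its reverse complement in 0 of them. ACA at 3 bases before the end was found in 1.60% of the 811 hairpins of at least 64 bases, and its reverse complement UGU at that place in 2.22%.

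None of the 3 was called. Snord33 was at 11.88, 11.91, 11.84 and 11.89 in the NFAT5 arrays, against 11.78, 11.83, 11.83 and 11.81 in the control arrays. Its NFAT5 values all lay above its control values, yet by a log2 fold change of 0.071 ± 0.065 (SE) with an adjusted p of 0.729 in limma. The separate probe set of Mir5121 gave 0.052 ± 0.15 (adjusted p = 0.931). On the same scale Snora34 was at -0.036 ± 0.19 and Snora36b at -0.38 ± 0.25, with adjusted p of 0.966 and 0.592, and the groups of both overlapped.

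The comparison asks whether small nucleolar RNAs differ between NFAT5 and control cells loaded with cholesterol. At an adjusted p under 0.05 (limma, Benjamini-Hochberg over all genes), 0 of 65 box C/D and 0 of 34 box H/ACA genes were called, where 0.777% of all genes were called, 0.364% higher and 0.413% lower. With p left unadjusted, 8 box C/D genes were under 0.05, 1 higher and 7 lower, and 3 box H/ACA genes, 0 higher and 3 lower, where 12.5% of all genes passed, 6.24% higher and 6.29% lower. Among the members passing this way 10 were lower and 1 higher, whereas over all genes the directions were about even. The members were not alone in this, as 36 of 543 microRNA genes passed lower and 13 higher. Of the 115 microRNA genes brighter than the median gene, 13 passed lower and 2 higher. Among 21 other small RNA genes 0 passed lower and 2 higher. The 95% interval of the fold change lay within 1.5-fold either way for 79 of the 99 members (79.8%), and for 87.1% of all genes. A change over 1.5-fold was seen in 2 members (2.02%), Snord52 and Snora20, and in 1.00% of all genes.

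More members were lower than higher in the NFAT5 arrays, by small amounts. Of the box C/D genes 46 lay below a log2 fold change of 0 and 19 above, with a median of -0.10 and quartiles of -0.19 and 0.013. Of the box H/ACA genes 23 lay below and 11 above, with a median of -0.059 and quartiles of -0.22 and 0.010. Over all genes the median was 0.0042 and 49.0% lay below 0, and over 543 microRNA genes the median was -0.0067 with 52.1% below 0. On the component PC2, control replicate 3 (-14.2) and NFAT5 replicate 4 (-24.7) lay apart from the other arrays, which ran from -0.337 to 19.5. Without both, 45 of 65 and 24 of 34 were below 0, with medians of -0.072 and -0.058. The box H/ACA median moved to -0.12 without NFAT5 replicate 1, -0.099 without NFAT5 replicate 3 and -0.10 without control replicate 2 or control replicate 4. Without NFAT5 replicate 4 it was nearer to no change, at -0.048. The box C/D median shrank to -0.069 without NFAT5 replicate 1 and to -0.068 without control replicate 1. Without control replicate 2 it stayed at -0.10.

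**Figure D1:**
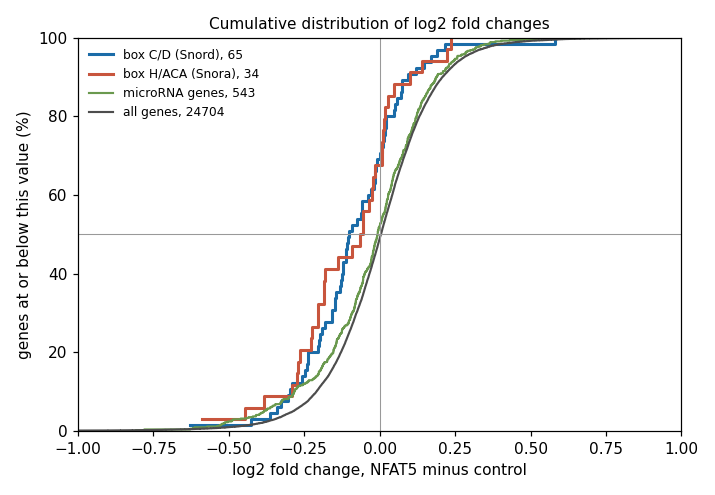
Share of genes (%) at or below each log2 fold change (NFAT5 minus control) for 65 box C/D genes, 34 box H/ACA genes, 543 microRNA genes and all 24704 genes. The box C/D and box H/ACA medians are at -0.10 and -0.059, left of those of the microRNA genes (-0.0067) and of all genes (0.0042).

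The shift was unevenly spread over the arrays. For each array, the deviations of the box C/D genes from their own mean over 8 arrays had medians of -0.098, -0.014, -0.014 and -0.032 in NFAT5 replicates 1 to 4, against 0.077, -0.00056, 0.066 and 0.0071 in control replicates 1 to 4. For the box H/ACA genes these medians were -0.15, 0.027, 0.0062 and -0.10 in the NFAT5 arrays, against 0.13, 0.078, 0.051 and -0.022 in the control arrays. NFAT5 replicate 1 was lowest and control replicate 1 highest in both classes. The groups overlapped for the box H/ACA genes and not for the box C/D genes.

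In the box C/D class 9 genes were lower in every NFAT5 array than in any control array (13.8% of the class) and 2 were higher (3.08%), where 4.56% of all genes were lower and 4.22% higher in this way (8.78% in all). These 11 were brighter than the median gene, so among the 53 box C/D genes that bright 9 were lower and 2 higher. Over all genes brighter than the median gene 7.64% were lower and 6.78% higher. The lower box C/D genes were Snord52, Snord87, Snord35a, Snord1b, Snord111, Snord57, Snord110, Snord123 and Snord15b, with log2 fold changes of -0.63 to -0.13. The higher ones were Snord13 and Snord33. Some of the lower genes were barely separated. The highest NFAT5 value and the lowest control value were 7.5254 and 7.5264 for Snord111, and 6.6738 and 6.6768 for Snord123. For Snord15b they were 8.666 and 8.6797. In the box H/ACA class Snora16a was separated downward (2.94% of the class), and 0 were separated upward. None of these 12 genes was called.

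**Figure D2:**
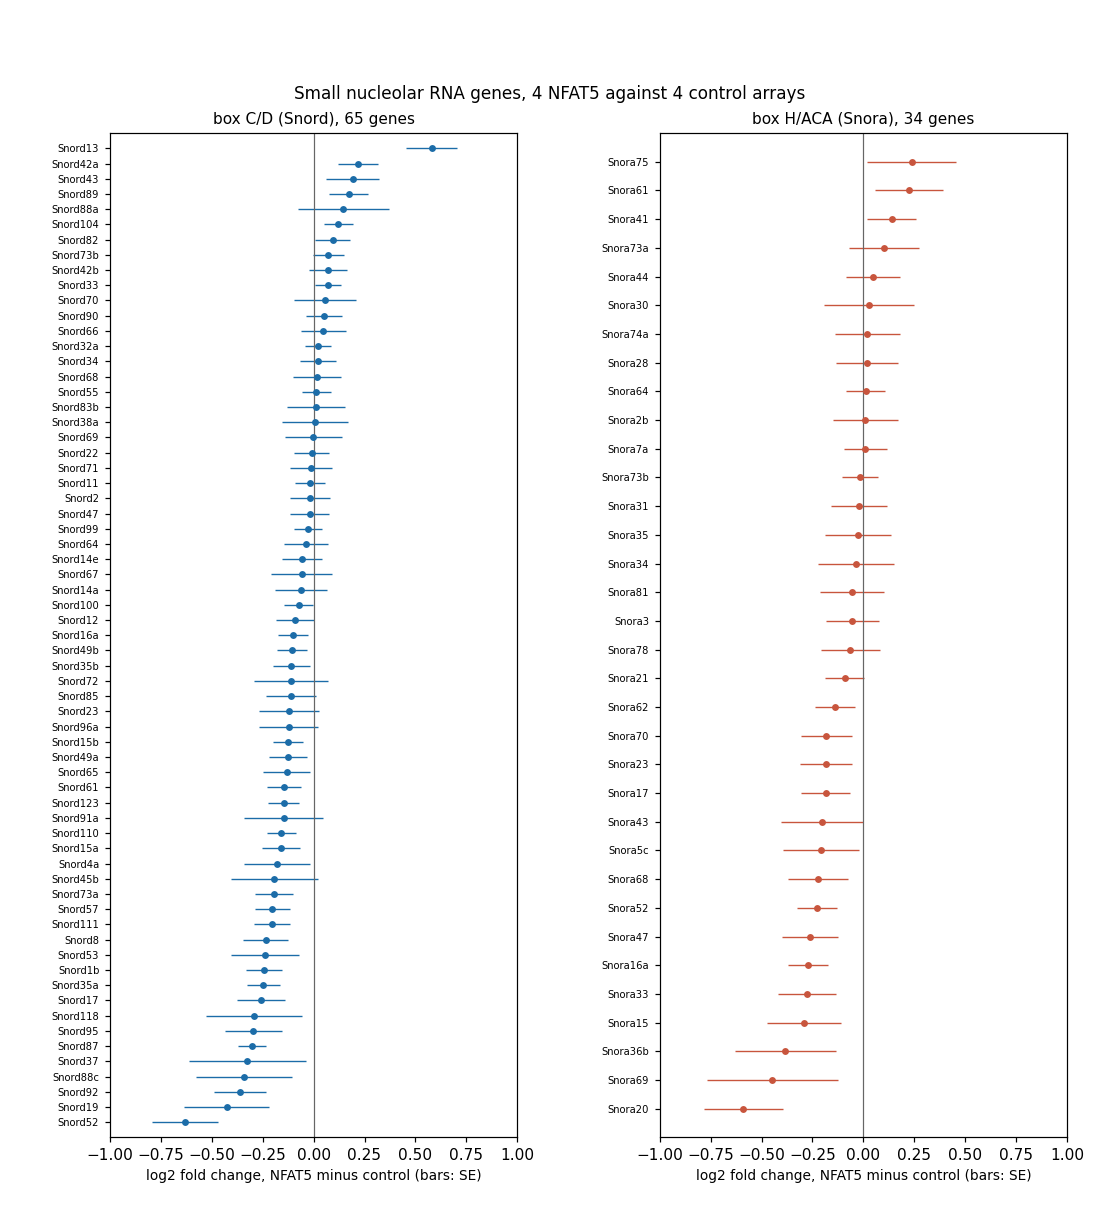
Log2 fold change (NFAT5 minus control, horizontal) of each of the 65 box C/D genes (left) and 34 box H/ACA genes (right), with points for estimates and bars for SE. Snord13 stands alone at the top at 0.58, and Snord52 (-0.63) and Snora20 (-0.59) are at the lower ends.

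Snord13 and Snord118 are transcribed from promoters of their own, and neither lies within the span of another annotated gene. Snord13, or U13, guides the acetylation of cytidine in the 18S ribosomal RNA by Nat10. It was at 9.59, 9.60, 9.37 and 9.21 in the NFAT5 arrays, against 9.10, 8.94, 8.63 and 8.78 in the control arrays. Every NFAT5 value lay above every control value. The log2 fold change was 0.58 ± 0.13 (SE), 1.49-fold, with a 95% interval of 0.30 to 0.86 and an adjusted p of 0.0894. This was the highest fold change and the lowest adjusted p among the members. Snord13 passed among genes above the median (adjusted p = 0.0349, with 4.02% of those genes called) and when limma's variance trend and robust option were used (adjusted p = 0.0317, with 3.16% called). Leaving out arrays gave 0.50 to 0.66, with adjusted p of 0.0833 to 0.223. Nat10, the acetyltransferase gene, was at -0.053 ± 0.095 (adjusted p = 0.879).

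Snord118, or U8, is needed to process the precursors of the 5.8S and 28S ribosomal RNAs. Its values were 2.84, 3.29, 3.44 and 2.57 in the NFAT5 arrays, against 3.75, 3.43, 3.36 and 2.76 in the control arrays. It was dim and the groups overlapped, with a log2 fold change of -0.29 ± 0.24 and an adjusted p of 0.682. It was at -0.14 without NFAT5 replicate 4, -0.15 without control replicate 1 and -0.48 without control replicate 4. Of 21 other small RNA genes, which are no members, 2 were called and 19 did not pass, where 0.777% of all genes were called. The RNase P RNA gene Rpph1 rose (0.68 ± 0.13, adjusted p = 0.0468), as did the 5S ribosomal RNA gene n-R5s136 (0.89 ± 0.10, adjusted p = 0.00656), both named after their values were seen. Of the 21 genes 15 lay above 0 and 6 below. Among the microRNA genes 1 was called, Mir697 (-0.62 ± 0.11, adjusted p = 0.0368).

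**Figure D3:**
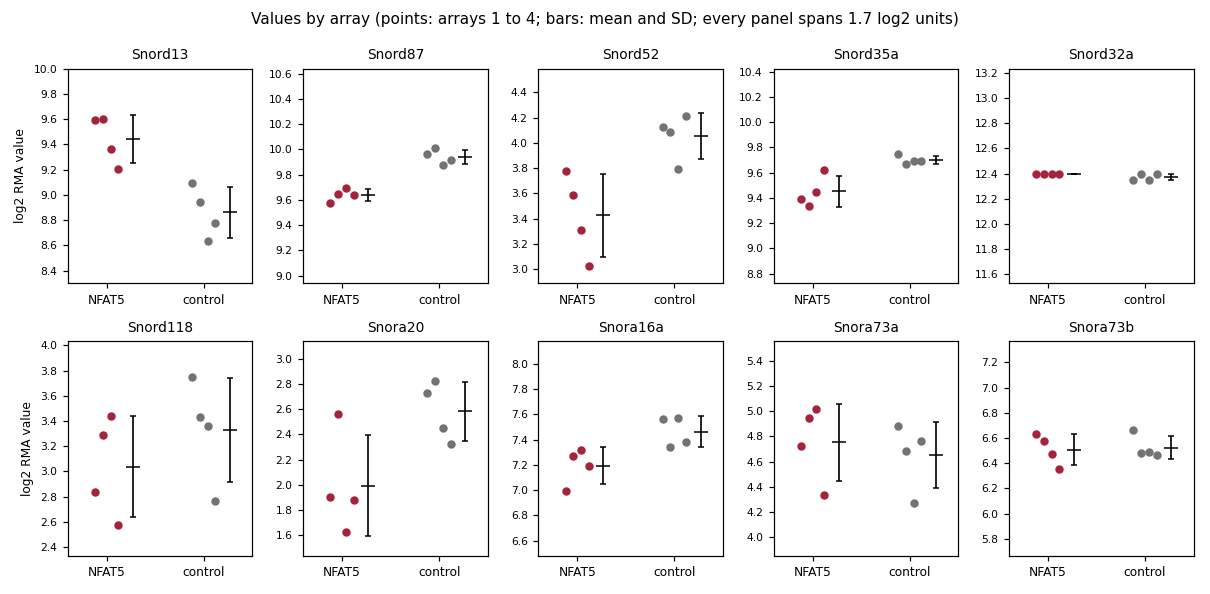
Log2 RMA value of 10 members on each array, NFAT5 left and control right, with points for arrays and bars for mean and SD (n = 4); every panel spans 1.7 log2 units. The NFAT5 points of Snord13 lie above its control points, those of Snord87, Snord52, Snord35a and Snora16a lie below, and those of the other panels overlap or tie.

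Snord87 and Snord52 had the lowest adjusted p among the members with lower values. Snord87 lies in the spans of the noncoding host gene Snhg6 and of Mcmdc2. It was at 9.58, 9.65, 9.70 and 9.64 in the NFAT5 arrays, against 9.96, 10.01, 9.88 and 9.92 in the control arrays. The arrays of each group lay close together and the groups apart, and the log2 fold change was -0.30 ± 0.070 (adjusted p = 0.106). It passed among genes above the median (adjusted p = 0.0226) and when the variance trend and robust option were used (4.62e-04). Snhg6 was at -0.19 ± 0.080 (adjusted p = 0.367) and Mcmdc2 at 0.050 ± 0.095 (adjusted p = 0.888).

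Snord52 lies in the noncoding gene 1110038B12Rik. It was at 3.78, 3.59, 3.31 and 3.02 in the NFAT5 arrays, against 4.12, 4.08, 3.79 and 4.21 in the control arrays. The groups nearly touched, between NFAT5 replicate 1 and control replicate 3. Its log2 fold change was -0.63 ± 0.16, with an adjusted p of 0.145, and of 0.105 to 0.293 with an array left out. Its mean over 8 arrays lay close to that of the median gene. The host transcript was at -0.096 ± 0.091 (adjusted p = 0.737).

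Among box H/ACA genes Snora20, in the chaperonin gene Tcp1, had the lowest fold change. It was at 1.90, 2.56, 1.63 and 1.88 in the NFAT5 arrays, against 2.73, 2.82, 2.45 and 2.33 in the control arrays. NFAT5 replicate 2 lay within the control range, and the log2 fold change was -0.59 ± 0.19 (adjusted p = 0.245). The probe set is dim, well under the median gene. Snora69 (-0.45 ± 0.32), Snora36b, Snora15 (-0.29 ± 0.18), Snora33 (-0.28 ± 0.14) and Snora16a (-0.27 ± 0.098) followed, with adjusted p of 0.285 to 0.635. Single arrays moved several of these: Snora69 was at -0.27 without control replicate 2 and at -0.78 without control replicate 3, and Snora36b at -0.14 without control replicate 1. Snora15 was at -0.18 without NFAT5 replicate 4 and at -0.17 without control replicate 2, and Snora33 at -0.14 without control replicate 2. At the other end were Snora75 (0.24 ± 0.22), Snora61 (0.22 ± 0.17), Snora41 (0.14 ± 0.12), Snora73a (0.10 ± 0.17), Snora44 (0.047 ± 0.13) and Snora30 (0.029 ± 0.22), with adjusted p of at least 0.653. Their sizes depended on single arrays. Snora61 was at 0.051 and Snora41 at 0.040 without NFAT5 replicate 4, and Snora41 at 0.21 without NFAT5 replicate 1. Snora75 was at 0.47, 0.087 and 0.14 without control replicates 1, 2 and 3. With an array left out Snora73a ran from -0.024 to 0.24, Snora44 from -0.033 to 0.16 and Snora30 from -0.12 to 0.18, so their sign was not settled. Snora52, among the nearest to the threshold, was at -0.23 ± 0.10 (adjusted p = 0.392).

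Further box C/D genes at the lower end were Snord19 (-0.43 ± 0.21), Snord92 (-0.36 ± 0.13), Snord88c (-0.34 ± 0.24), Snord37 (-0.33 ± 0.29), Snord95 (-0.30 ± 0.14) and Snord17 (-0.26 ± 0.12), with adjusted p of 0.273 to 0.714. Snord88c was low on NFAT5 replicate 4 (3.99 to 5.27 in the NFAT5 arrays, against 4.95 to 5.27 in the control arrays), and its fold change was -0.071 without that array. Without the same array Snord95 was at -0.19. Snord19 was at -0.28 without control replicate 1, and Snord17 at -0.17 without NFAT5 replicate 1. Snord37 was at -0.53, -0.12 and -0.18 without NFAT5 replicates 1, 3 and 4, and at -0.50 without control replicate 3. At the upper end, after Snord13, were Snord42a (0.22 ± 0.098), Snord43 (0.19 ± 0.13), Snord89 (0.17 ± 0.094), Snord88a (0.15 ± 0.22) and Snord104 (0.12 ± 0.071), with adjusted p of 0.410 to 0.856. Snord43 was at 0.097 without NFAT5 replicate 4 and Snord89 at 0.11 without NFAT5 replicate 3, and Snord88a ran from -0.094 to 0.30 with an array left out. Snord82, Snord73b and Snord42b lay between 0.072 and 0.094.

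Members taken here as acting in cleavage of the ribosomal RNA precursor were Snord14a and Snord14e (U14), Snord22 (U22), Snord118 (U8), and Snora73a and Snora73b (U17). Of these 6, 5 lay below 0 and 1 above, 0 were called, and the median log2 fold change was -0.038. Snord22 was at 8.99, 9.09, 9.17 and 9.31 in the NFAT5 arrays, against 9.14, 9.15, 9.24 and 9.07 in the control arrays. Its groups overlapped, with a log2 fold change of -0.010 ± 0.087 (95% interval -0.21 to 0.19). Snord14e was at -0.059 ± 0.099 and Snord14a at -0.061 ± 0.13.

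Snora73, the U17 RNA of the Snhg3 locus, has also been linked to the trafficking of cholesterol within cells. Snora73a was at 4.72, 4.94, 5.02 and 4.34 in the NFAT5 arrays, against 4.89, 4.69, 4.28 and 4.76 in the control arrays. Snora73b was at 6.63, 6.57, 6.47 and 6.35 in the NFAT5 arrays, against 6.66, 6.48, 6.49 and 6.46 in the control arrays. The groups of both overlapped. The log2 fold change of Snora73a was 0.10 ± 0.17 (95% interval -0.28 to 0.49, adjusted p = 0.870) and that of Snora73b was -0.017 ± 0.088 (-0.21 to 0.18, adjusted p = 0.966). These are copies of the same RNA, so probes may read both. Their host transcript Snhg3 was at -0.25 ± 0.10 (adjusted p = 0.357). No cells without cholesterol are compared here.

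The introns of Rpl13a hold Snord32a, Snord33, Snord34 and Snord35a, RNAs that have been tied to the response of cells to toxic lipid and oxidative stress. Snord35a was at 9.39, 9.34, 9.45 and 9.62 in the NFAT5 arrays, against 9.74, 9.67, 9.69 and 9.69 in the control arrays. All NFAT5 arrays were lower, with a log2 fold change of -0.25 ± 0.081 (adjusted p = 0.242, and 0.0155 when the variance trend and robust option were used). Snord33, described above, was at 0.071, Snord34 at 0.021 ± 0.088 (adjusted p = 0.958) and Snord32a at 0.022 ± 0.064 (adjusted p = 0.933). Counted from the brightest probe set, Snord32a had rank 18 on 6 arrays and rank 19 on control replicates 1 and 3. Its values were 12.39, 12.39, 12.39 and 12.39 in the NFAT5 arrays, against 12.35, 12.39, 12.35 and 12.39 in the control arrays. Quantile normalisation gives each rank the same value on every array, so these values differ by a single rank and say little about the size of a change. The brightest box C/D probe sets besides it were Snord100 (-0.074), Snord33, Snord99 (-0.029) and Snord47 (-0.018), with adjusted p of at least 0.729. The brightest box H/ACA probe sets were Snora21 (-0.092), Snora23 (-0.18), Snora16a, Snora52 and Snora17 (-0.18), with adjusted p of at least 0.285.

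Some members commonly serve as reference RNAs in assays of microRNAs. The 7 chosen here, not a full list, were Snord47, Snord61, Snord68, Snord70, Snord72, Snord95 and Snord96a, of which 0 were called and 5 lay below 0. Snord68 was at 7.02, 7.02, 7.02 and 7.49 in the NFAT5 arrays, against 7.05, 7.13, 7.25 and 7.05 in the control arrays. NFAT5 replicate 4 was higher than the rest, and the log2 fold change was 0.017 ± 0.12. Snord95 ranged from 5.18 to 5.88 in the NFAT5 arrays, against 5.62 to 5.93 in the control arrays. The groups overlapped, and its log2 fold change of -0.30 ± 0.14 (95% interval -0.61 to 0.019) was the farthest from 0 among the 7. Snord61 was at -0.15 ± 0.083, Snord96a at -0.12 ± 0.14, Snord72 at -0.11 ± 0.18, Snord70 at 0.057 ± 0.15 and Snord47 at -0.018 ± 0.096. The within-group SDs of the 7 ran from 0.097 for Snord61 to 0.30 for Snord72.

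Of the members from imprinted or neural loci, Snord64, in the imprinted Snhg14 transcript, was dim and averaged 1.56 ± 0.063 in the NFAT5 arrays and 1.60 ± 0.21 in the control arrays (SD, n = 4 each). Snora35, in the serotonin receptor gene Htr2c, lay just above the median gene and averaged 3.83 ± 0.34 in the NFAT5 arrays and 3.86 ± 0.15 in the control arrays. In all, 12 box C/D and 5 box H/ACA genes lay at or below the median gene. The median within-group SD was 0.13 for box C/D genes and 0.24 for box H/ACA genes, against 0.16 over all genes.

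Host genes were taken as protein-coding or noncoding genes whose span in the RefSeq table holds a member, without regard to strand, which that table does not give. Of the 99 members 90 lay in exactly 1 span, 6 in 2 spans, and Snord13, Snord118 and Snord89 in none. There were 75 such hosts, 58 protein-coding and 17 noncoding, of which 21 are named as ribosomal proteins (Rpl or Rps). Of the 60 hosts measured 0 were called, 40 lay above 0 and 20 below, and their median log2 fold change was 0.041. Of these 60, 51 were brighter than the median gene. Dim hosts included Rpl10 (2.157 in the NFAT5 arrays, 1.949 in the control arrays) and Tpt1 (2.049 and 2.435). Rpl23a, also dim, was at -0.60 ± 0.43 (SE). The sign of such a host is uncertain, and how well its probe set reads the host transcript was not tested. For the 72 members with a single measured host, 38 were lower beside a higher host and 14 were lower beside a lower host. Another 12 were higher beside a higher host and 8 were higher beside a lower host. Most of the 72 were lower and most had a higher host, so the count of 38 alone does not show a relation of member and host. A host with several members was counted with each, and a relation was not tested. The hosts of Snora20 and Snora16a, Tcp1 and Snhg12, were at 0.11 and 0.27.

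**Figure D4:**
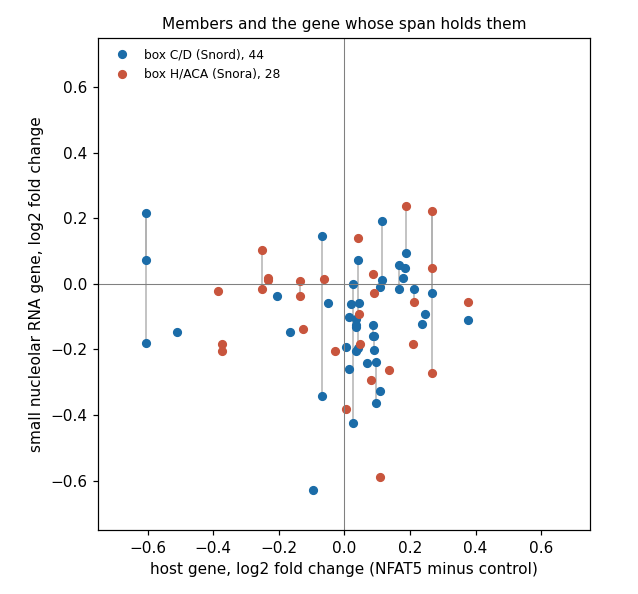
Log2 fold change (NFAT5 minus control) of 72 members (44 box C/D, 28 box H/ACA; vertical) against that of the only gene whose span holds them (horizontal), with lines joining members of the same host. The quadrant with a lower member and a higher host holds 38 points, where most members lay below 0 and most had a host above 0. Some hosts were dimmer than the median gene.

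RNAs of the same host differed in sign for some hosts, and these differences were not tested. Some of these values lay close to 0, such as -0.036 and 0.0091 for Snora34 and Snora2b in Kansl2. Over all 99 members 69.7% lay below 0. Of 21 hosts with at least 2 members, 9 had members of both signs, 9 had only lower and 3 only higher ones. Snhg12 holds Snora16a (-0.27), Snord99 (-0.029), Snora44 (0.047) and Snora61 (0.22). Snora16a was at 6.99, 7.27, 7.32 and 7.19 in the NFAT5 arrays, against 7.57, 7.34, 7.57 and 7.38 in the control arrays, and the host was at 0.27 ± 0.10 (adjusted p = 0.325). Snord88a and Snord88c, of 2410002F23Rik, were at 0.15 and -0.34, and Snord69 and Snord19, of the nucleolar GTPase gene Gnl3, at -0.00064 and -0.43. Snord57 and Snord110, of the box C/D core protein gene Nop56, were at -0.20 and -0.16, both with NFAT5 values below all control values, while Nop56 was at 0.091 ± 0.075 (adjusted p = 0.689). Snord49a, Snord49b and Snord65, of 2410006H16Rik, lay between -0.13 and -0.11.

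A separate list of 20 noncoding host transcripts was taken by name and not by span. Some of them, Meg3, Mirg, Rian and Snhg11 included, hold no member by span. Of the 20, 0 were called, 13 lay below 0 and 7 above, with a median log2 fold change of -0.18. That median is not one of the members' own hosts. The ends were Snhg7 (-0.37 ± 0.11, adjusted p = 0.181), which holds Snora17 and Snora43, and Snhg12. Further values are named after they were seen. Snhg11, the nearest to Snhg7, was at -0.37 ± 0.091 (adjusted p = 0.129), with all NFAT5 arrays lower. Meg3, an imprinted transcript whose locus encodes many box C/D RNAs, was at -0.32 ± 0.073 (adjusted p = 0.105), Mirg of the same locus at -0.29 ± 0.079 and Rian at -0.050 ± 0.074. Zfas1, the host of Snord12, was at 0.25 ± 0.069 (adjusted p = 0.178), with all NFAT5 arrays higher, whereas Snord12 was at -0.092 ± 0.094.

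The proteins that build small nucleolar ribonucleoproteins were measured for 7 of 8 core genes, and 0 were called. In the box C/D core, the methyltransferase gene Fbl was at 0.12 ± 0.22, Nop56 at 0.091 and Nop58 at 0.17 ± 0.077. In the box H/ACA core, the pseudouridine synthase gene Dkc1 was at 0.020 ± 0.087, Nhp2 at 0.0047 ± 0.12, Nop10 at -0.042 ± 0.080 and Gar1 at -0.061 ± 0.11. All 7 had adjusted p of at least 0.422. Of 14 assembly and transport genes 0 were called, and the ends were Naf1, an H/ACA assembly factor (0.28 ± 0.11), and the export adaptor Phax (-0.26 ± 0.16).

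Of 7 genes that free and trim intronic RNAs or degrade their hosts 0 were called and 7 lay above 0. Dbr1, which opens intron lariats, was at 0.41 ± 0.13 (adjusted p = 0.242), and Upf1, of nonsense-mediated decay, was at 0.0027. Exosc10, a nuclear exosome nuclease named after its values were seen, was at 0.22 ± 0.071 (adjusted p = 0.242). Of 16 genes of ribosomal RNA transcription and the nucleolus 0 were called, and the ends were Npm1, encoding nucleophosmin (0.25 ± 0.15), and Taf1b of the polymerase I machinery (-0.19 ± 0.088). Beside these, 6 of 10 cell cycle genes rose in the same arrays, among them Mki67 (0.61 ± 0.10, adjusted p = 0.0329), and their part in the values of the members was not tested.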

How the data were processed

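Total RNA of 8 samples was measured on single-colour Affymetrix arrays, 4 per group, grouped by title. The deposited log2 values come from RMA according to the submitters' processing notes, without a version. The build behind the probe sets is not given in the sources used here. Sorted values were equal on 7 arrays (within 1e-06), and NFAT5 replicate 1 differed by at most 0.00183 and had finer steps (678 repeated values, against 14049). The deposited log2 values thus share a distribution across arrays, and a shift of all genes cannot be seen. Of 25428 probe sets 24705 had 1 symbol, 0 had several and 723 were not listed. Where a symbol had several probe sets the brightest was kept. No dim genes were removed.

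Groups were compared with limma 3.58.1 in R 4.3.3 (lmFit, eBayes, two-sided, no covariates) over all 24704 genes. Called means a Benjamini-Hochberg adjusted p under 0.05. The Nfat5 permutation covered 70 assignments, with a smallest p of 0.0286. Precision is limited by how many arrays there are, and a log2 fold change had a median SE of 0.11. The fit was tested on simulated data. Hosts were matched without strand, unlike the plan. Figures were drawn with matplotlib 3.10.9 under Python 3.11.15.

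Members and gene lists were chosen with earlier results of these data known. Named genes were Nfat5, 10 box C/D and 6 box H/ACA genes at either end of fold change, the 5 brightest and the 3 nearest the threshold of each class, their measured hosts, core proteins, and called genes and ends of lists. Alternatives tried were a block for replicate number, quantile normalisation applied again, centring on the median or on other small RNA genes, filters at the lower quartile and the median, limma's variance trend and robust option, weights per array, the mean over probe sets, arrays left out, and other thresholds.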

Additional observations from a re-analysis of the deposited data

Results flagged for a closer look

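Of 86 groups of 4 arrays examined for an array far from the other 3, 3 had one, where chance marks about 1 in 20. Snord37 was at 2.85 in control replicate 3, against 3.46 to 3.57 in the other control arrays. Snord17 was at 5.97 in NFAT5 replicate 1, against 6.30 to 6.34 in the other NFAT5 arrays. Snord32a was at 12.3933 in NFAT5 replicate 1 and at 12.3926 in the other 3 NFAT5 arrays, a gap no larger than the differences in sorted values between that array and the rest.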

How the results depend on the processing

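The count of called genes was 192 and became 497 among genes brighter than the median gene, 781 when limma's variance trend and robust option were used, 30 without NFAT5 replicate 4 and control replicate 3, 42 at an adjusted p under 0.01 and 3097 at an unadjusted p under 0.05, and it ranged from 56 to 88 with an array left out. With the replicate number as a block (replicate block) it was 14. Deviations of same-numbered arrays correlated at -0.079 to 0.055, so no pairing by number was seen. So few arrays cannot exclude one, and the labels do not state it. The called box C/D count of 0 became 2 with that filter (Snord13, Snord87), 3 with that option (also Snord35a) and 8 at an unadjusted p. It stayed at 0 in each other alternative, the block and arrays left out included. The box H/ACA count was 0 in all alternatives except 3 at an unadjusted p. Of 110 host and pathway genes 0 were called, but 4 with that filter (Meg3, Rbmx and Snhg11 lower, Zfas1 higher), 3 with that option (Meg3, Rbmx, Snhg11) and 18 at an unadjusted p. The cause of these moves was not tested. The class medians kept their sign in all settings, from -0.10 to -0.061 for box C/D and from -0.12 to -0.035 for box H/ACA genes. Among 709 values of 40 named members under alternatives, 13 had another sign than the main value, all of 5 members within 0.15 of 0, and 0 called values did. Dim probe sets limit what can be seen for 12 box C/D and 5 box H/ACA genes, and for the hosts dimmer than the median gene.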
